A study of Mus musculus with 6 samples.

Results

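The 10 genes that encode glycoproteins of the endothelial cell surface and of the contacts between endothelial cells studied here in whole brain after systemic LPS were Pecam1, Cdh5, Esam, Emcn, Cd34, Cd93, Eng, Robo4, Mmrn2 and Plvap. They were the 10 genes of 19938 named on the array whose symbol was on this list, and each was measured by 1 transcript cluster, a set of probes assigned to a transcribed locus, that named no other gene. The arrays came from male C57BL/6 mice purchased at an age of 7 to 8 weeks, of which 3 were injected i.p. with 4 mg/kg LPS of Escherichia coli serotype 055:B5 and 3 with PBS as vehicle. All were euthanized 48 hours after injection and perfused with PBS, and RNA of each whole brain was hybridized to its own Mouse Gene 1.0 ST array. Whole brain holds endothelial cells as a small part of its RNA, so that more endothelial cells and more RNA per endothelial cell cannot be told apart in these values.

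Endothelial cells line the blood vessels, and in brain they form the blood-brain barrier. Their junctions are held together by VE-cadherin, the product of Cdh5, and by the immunoglobulin-like adhesion molecules PECAM-1 and ESAM. On the side that faces the blood they carry sialomucins such as endomucin and CD34, and receptors that sense the matrix, guidance cues and growth factors. The products of Emcn and Cd34 are also used to recognize vessels in tissue sections, and PECAM-1, CD93 and CD34 are known on some blood cells as well.

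Of the 10 genes, 9 were higher in every LPS-treated mouse than in any vehicle-treated control. Of these, 6 passed the test, namely Cd93, Emcn, Pecam1, Cdh5, Cd34 and Esam, and none was lower. Eng, Robo4 and Mmrn2 did not pass although their groups did not overlap, and Plvap had overlapping groups. The test was limma over all 35556 transcript clusters with Benjamini-Hochberg adjustment and a threshold of 0.05, by which 0.652% of all clusters were higher, 0.0619% lower and 0.714% either. By the methods' t-test, an unpaired t test with equal variances run on the same values, none of the 10 passed after adjustment. With each array left out in turn the count of 6 became 3 without LPS replicate 1, LPS replicate 2, PBS replicate 1 or PBS replicate 2, 4 without PBS replicate 3 and 9 without LPS replicate 3. Leaving out LPS replicate 3 also raised the clusters called higher, among all 35556, from 232 to 2640. At an unadjusted p under 0.05 from limma, 9 of the 10 were higher, against 7.69% of all clusters. All 3 LPS arrays lay above all 3 PBS arrays in 9.73% of all clusters and below them in 10.3%. The median log2 fold change of the 10 genes was 0.67, against -0.000925 over all clusters. All of these calls come from the arrays that the study analysed, so that none is independent of it. Emcn, Cdh5 and Cd34 are also on lists that the study drew from these arrays.

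**Figure D1:**
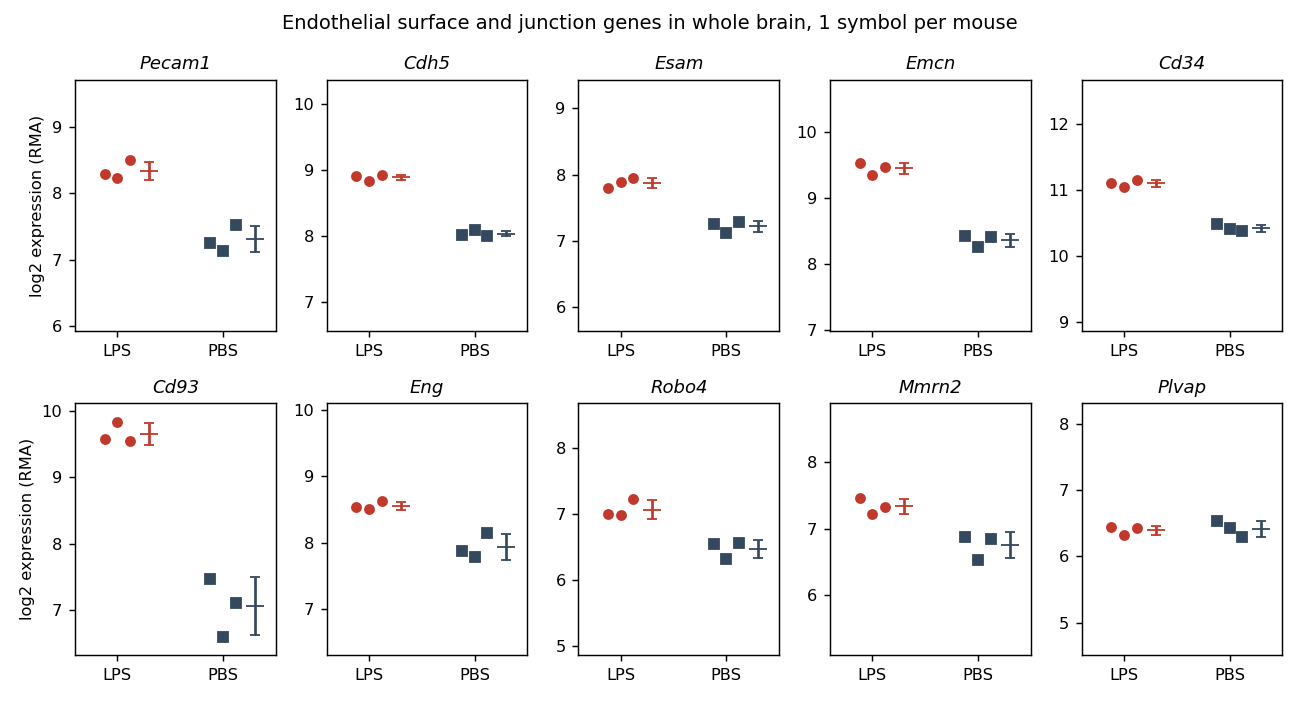
Log2 expression (RMA, vertical axis, same span in every panel) of the 10 genes in whole brain, with 3 LPS-treated mice as red circles on the left and 3 vehicle-treated controls as dark squares on the right of each panel; the bar beside each group is the mean ± SD. The groups are apart in 9 panels and overlap for Plvap.

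The values behind these counts are on a log2 scale and were normalized by the authors with RMA, the robust multichip average, where a difference of 1 is a doubling. Their level depends on the probes, so that levels of different genes cannot be ranked. As a measure of background, 1205 clusters of olfactory and vomeronasal receptors, little transcribed in brain, had medians of 5.66 to 5.81 in the LPS arrays and 5.70 to 5.77 in the PBS arrays. Their 95th percentile was 6.45 to 6.64 in the LPS arrays and 6.49 to 6.54 in the PBS arrays. The first principal component (54.5% of the variance) set LPS replicates 1 and 2 off from the rest, and each value below is therefore given mouse by mouse. With 3 mice per group an exact two-sided permutation test cannot give a p below 0.1, which is the value all 9 separated genes had. Of 7 measured genes of neurons, astrocytes and oligodendrocytes, which check the tissue label, none was higher or lower, and all lay above the 95th percentile of the receptor genes in every control. Tbp, the reference gene of the study's qPCR, had a log2 fold change of -0.00413 (limma, adjusted p = 0.991).

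The junction molecules rose together. Cdh5, which encodes VE-cadherin, the cadherin that links endothelial cells at adherens junctions, is located in GRCm38.p6 on chromosome 8 from 104101613 to 104144504. Its log2 expression was 8.90, 8.84 and 8.91 in the 3 LPS-treated mice, against 8.02, 8.08 and 8.01 in the 3 controls. The mice of each group differed by less than 0.1, the narrowest spread among the 10 genes in either group. The fold change was 1.80 (95% confidence interval 1.60 to 2.03, log2 fold change 0.85, standard error 0.07, adjusted p = 0.00492 from limma). The call held whichever array was left out (adjusted p up to 0.0476 from limma). It ended with the replicate number as a block in the fit (adjusted p = 0.0603 from limma).

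Pecam1, on chromosome 11 from 106654213 to 106715281, encodes the adhesion molecule PECAM-1 (CD31), which binds itself across endothelial junctions and is also found on leucocytes and platelets. It had log2 expression values of 8.29, 8.24 and 8.50 in LPS-treated mice, against 7.26, 7.14 and 7.52 in controls. The third mouse was the highest of each group, and the groups were still 0.72 apart at their nearest. The fold change was 2.05 (95% confidence interval 1.67 to 2.53, log2 fold change 1.04, standard error 0.13, adjusted p = 0.0207 from limma). Its call ended when LPS replicate 1 or 2 or PBS replicate 1 or 2 was left out (adjusted p from 0.0660 to 0.115 from limma), and with each array's median taken off (adjusted p = 0.0534).

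Esam, on chromosome 9 from 37528089 to 37538319, encodes an endothelial cell adhesion molecule of the immunoglobulin superfamily that sits at tight junctions. Its values were 7.79, 7.88 and 7.94 in LPS-treated mice, against 7.25, 7.12 and 7.28 in controls. No control came within 0.51 of an LPS-treated mouse. The fold change was 1.57 (95% confidence interval 1.37 to 1.81, log2 fold change 0.66, standard error 0.08, adjusted p = 0.0247 from limma). The call held without LPS replicate 3 and ended without any other array (adjusted p from 0.0840 to 0.125 from limma). It also ended after quantile normalization (adjusted p = 0.0595) and when arrays were centred on their medians (adjusted p = 0.102 from limma).

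Both sialomucins were higher as well. Emcn, on chromosome 3 from 137341062 to 137431069, encodes endomucin, a mucin-like protein of capillary and venous endothelium that hinders the attachment of leucocytes. Log2 expression of Emcn was 9.52, 9.35 and 9.47 in LPS-treated mice, against 8.43, 8.25 and 8.41 in controls. The lowest LPS-treated mouse was 0.93 above the highest control. The fold change of 2.12 (95% confidence interval 1.83 to 2.45, log2 fold change 1.08, standard error 0.09, adjusted p = 0.00448 from limma) remained called without each array in turn (adjusted p up to 0.0376 from limma).

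Cd34, on chromosome 1 from 194938821 to 194961292, encodes a sialomucin of endothelium and of haematopoietic progenitor cells, which can serve as a ligand of L-selectin. It had 11.10, 11.04 and 11.14 in LPS-treated mice, against 10.48, 10.40 and 10.38 in controls. Spread was about 0.1 within each group, and the groups lay 0.57 apart. The fold change was 1.60 (95% confidence interval 1.41 to 1.80, log2 fold change 0.68, standard error 0.07, adjusted p = 0.0142 from limma). The call held without LPS replicate 3 and ended without any other array (adjusted p from 0.0501 to 0.0950 from limma), and when arrays were centred on their medians (adjusted p = 0.0714).

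Cd93 had the largest change of the 10 genes. It lies on chromosome 2 from 148436651 to 148443535 and encodes a receptor with a C-type lectin-like domain, present on endothelial cells and on myeloid cells, which binds the matrix protein multimerin-2. Its log2 expression was 9.58, 9.84 and 9.55 in LPS-treated mice, against 7.46, 6.59 and 7.11 in controls. The controls spanned 0.87, the widest spread of any of the 10 genes, and PBS replicate 2 was the lowest. The groups were nonetheless 2.08 apart at their nearest. The fold change was 6.06 (95% confidence interval 4.25 to 8.66, log2 fold change 2.60, standard error 0.22, adjusted p = 0.00465 from limma), which gave it rank 4 in size among the 19938 genes. Without each array in turn the log2 fold change was 2.37 to 2.80, and the call held each time (adjusted p up to 0.0385 from limma).

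**Figure D2:**
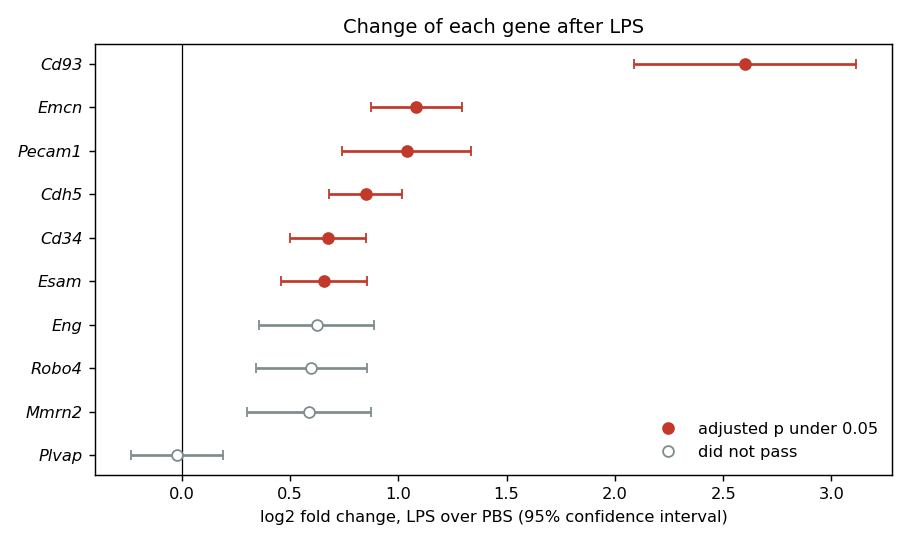
Log2 fold change of LPS over PBS (horizontal axis) with its 95% confidence interval from limma for each of the 10 genes, ordered by size; filled red symbols have an adjusted p under 0.05. The interval of Cd93, from 2.09 to 3.11, lies above those of the other genes, and that of Plvap spans 0.

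The genes of the signalling receptors endoglin and ROBO4 and of the matrix protein multimerin-2 did not pass the test, although their groups were apart. Eng, on chromosome 2 from 32646595 to 32682669, encodes endoglin, a co-receptor of endothelial cells for ligands of the TGF-beta and BMP family. It had 8.54, 8.50 and 8.63 in LPS-treated mice, against 7.87, 7.78 and 8.15 in controls. PBS replicate 3 was the control nearest to the LPS-treated mice, 0.35 below them. The log2 fold change was 0.62 (95% confidence interval 0.36 to 0.89, adjusted p = 0.0871 from limma).

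Robo4, on chromosome 9 from 37401902 to 37414023, encodes the Roundabout receptor of endothelial cells, which binds UNC5B and is known for stabilizing vessels. Its values were 7.00, 6.98 and 7.23 in LPS-treated mice, against 6.54, 6.32 and 6.56 in controls, with a log2 fold change of 0.60 (95% confidence interval 0.34 to 0.85, adjusted p = 0.0897 from limma). The groups were 0.43 apart. PBS replicate 2 did not exceed the 95th percentile of the receptor genes, so the controls were close to background. Robo4 and Esam are near each other, with 114 kb between the end of Robo4 and the start of Esam.

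Mmrn2, on chromosome 14 from 34375504 to 34404287, encodes multimerin-2, an extracellular matrix protein laid down by endothelial cells and a ligand of CD93 and CLEC14A. It had 7.46, 7.23 and 7.32 in LPS-treated mice, against 6.88, 6.52 and 6.85 in controls. Here too PBS replicate 2 was the lowest and did not exceed the 95th percentile of the receptor genes. The log2 fold change was 0.59 (95% confidence interval 0.30 to 0.87, adjusted p = 0.124 from limma). Eng, Robo4 and Mmrn2 each passed when LPS replicate 3 was left out (adjusted p = 0.0349, 0.0290 and 0.0442 from limma). Their log2 fold changes were then 0.59, 0.52 and 0.59.

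Plvap was measured near background and had overlapping groups. It lies on chromosome 8 from 71497753 to 71511806 and encodes the protein that builds the diaphragms of endothelial fenestrae and vesicles, which in brain is known from the leaky vessels of the choroid plexus and circumventricular organs and not from mature barrier endothelium. Log2 expression was 6.44, 6.32 and 6.42 in LPS-treated mice, against 6.53, 6.42 and 6.29 in controls. No separation was seen, and the log2 fold change was -0.02 (95% confidence interval -0.23 to 0.19, adjusted p = 0.935 from limma). Plvap exceeded the 95th percentile of the receptor genes in none of the LPS arrays and in 1 of the PBS arrays, and so was hardly above background. At such a level a change of the transcript may not be detectable. Of 8 measured choroid plexus epithelium genes none was higher or lower, with a mean log2 level of the list of 7.98 to 8.52 in LPS-treated mice and 8.22 to 8.39 in controls.

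The changes differed in size between genes of the same brains. In the order of log2 fold changes, Emcn did not differ from Pecam1 beyond the spread between mice, nor Pecam1 from Cdh5, and Cd34, Esam, Eng, Robo4 and Mmrn2 could not be ordered among themselves. These neighbours differed by 0.01 to 0.19 on the log2 scale, and the differences taken within each array overlapped between the groups. Only neighbours were compared, so that this does not show Emcn and Cdh5 to have changed alike. Cd93 changed more than Emcn, its neighbour, by 1.52, with the groups apart. Plvap, the last in this order, is not set against its neighbour because its signal was near background. Cdh5 exceeded Cd34 by 0.17, where the groups were only 0.09 apart. The order was chosen on these values, so that the differences between neighbours are descriptions without a test.

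Each gene was also set against the median of the other 9 in the same array, after centring each gene on its mean over the 6 arrays. Cd93 was 0.88, 1.20 and 0.79 above this median in LPS-treated mice and -0.60, -1.31 and -0.98 relative to it in controls, a difference of 1.92 on the log2 scale. Plvap had -0.38, -0.42 and -0.44 in LPS-treated mice and 0.50, 0.48 and 0.19 in controls, a difference of -0.80. For a signal near background, as that of Plvap, such a value does not show how its transcript changed relative to the others. Emcn and Pecam1 differed by 0.40 and 0.36, with the groups apart. Against the mean of the other genes these differences were 0.24 and 0.19, and without centring each gene they turned to -0.04 and -0.23. The differences of the other 6 genes overlapped between the groups, at -0.17 to 0.17. An exact two-sided permutation test gave p = 0.1 for Cd93, Plvap, Emcn and Pecam1, the smallest it can give, and 0.25 after Benjamini-Hochberg adjustment over the 10 genes.

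Mice of the same group also differed from each other in a shared manner. Among LPS-treated mice replicate 3 had the highest value for 6 of the 10 genes and replicate 2 the lowest for 8. Among controls replicate 2 had the lowest value for 7 genes, all but Cdh5, Cd34 and Plvap. These differences were small beside those between the groups for most genes, with a median range within a group of 0.16 in LPS-treated mice and 0.24 in controls. The mean log2 level of the 10 genes was 8.46, 8.42 and 8.51 in LPS-treated mice, against 7.67, 7.46 and 7.66 in controls. In these levels the pair of LPS arrays that stood apart over all clusters did not stand apart. The levels were not centred on the array medians, which were 7.09, 7.11 and 6.96 in LPS arrays and 6.98, 6.95 and 6.96 in PBS arrays. Relative to its array median, each array of that pair would thus be lowered more than the others. With LPS replicates 1 and 2 both left out, LPS is a single mouse that is assumed to vary like the 3 controls. The 9 log2 fold changes were then 0.57 to 2.49, and none of the 10 genes passed (adjusted p from 0.0629 for Emcn upwards from limma), which in a fit with 1 LPS array says little about them.

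**Figure D3:**
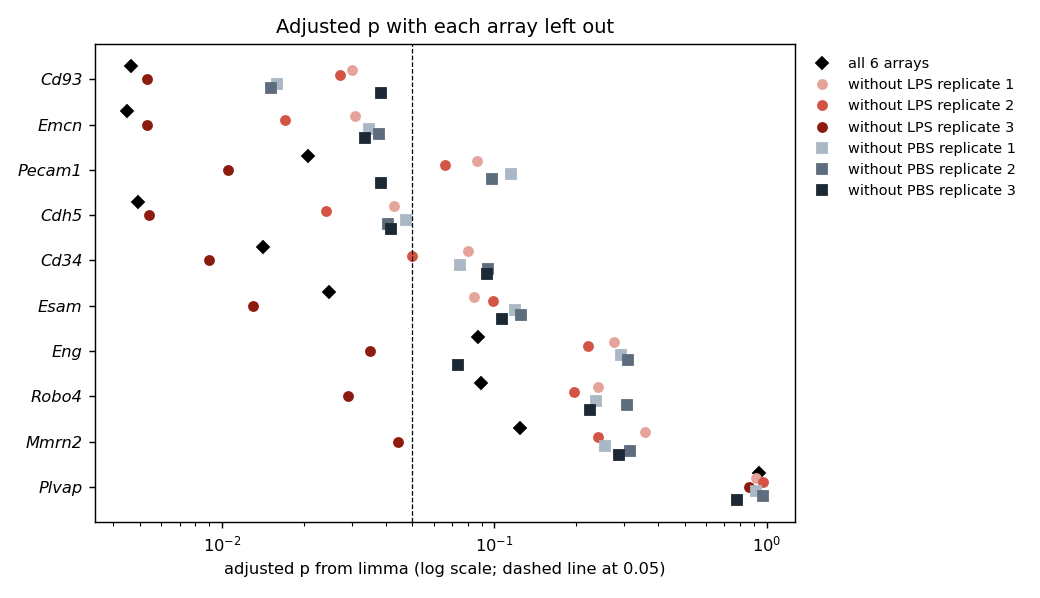
Adjusted p from limma (horizontal log axis, dashed line at 0.05) for each gene with all 6 arrays (black diamonds), with each LPS array left out (red circles) and with each PBS array left out (dark squares). Cd93, Emcn and Cdh5 stay left of the line in every case, and without LPS replicate 3 all genes but Plvap do. Over all clusters 2640 were higher without LPS replicate 3, against 232 with all 6 arrays.

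The start regions of 4 of the 10 genes, taken from RefSeq on GRCm38.p6, are shown to compare their letters, these being the genes with a window in the table used here. Each is the 250 bases before the transcript start to which the table ties the window, all on the plus strand; for Emcn and Robo4 that start lies a little inside the locus given above, so that the window runs into the locus. Capitals mark the ETS core, searched as AGGAAG or CGGAAG on both strands, which is the core bound by the ETS transcription factors of endothelial cells such as ERG and FLI1.
Emcn (chr3:137340828-137341077): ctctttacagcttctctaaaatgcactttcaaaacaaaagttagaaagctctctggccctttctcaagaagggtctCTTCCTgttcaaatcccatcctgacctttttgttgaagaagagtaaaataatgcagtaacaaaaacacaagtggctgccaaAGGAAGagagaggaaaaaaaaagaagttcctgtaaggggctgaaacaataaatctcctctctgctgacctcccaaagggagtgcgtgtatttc
Cd34 (chr1:194938571-194938820): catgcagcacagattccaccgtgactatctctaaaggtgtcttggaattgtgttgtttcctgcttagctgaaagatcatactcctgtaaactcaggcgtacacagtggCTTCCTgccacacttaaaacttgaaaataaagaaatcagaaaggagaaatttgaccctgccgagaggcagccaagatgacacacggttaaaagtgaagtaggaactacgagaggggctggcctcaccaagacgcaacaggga
Eng (chr2:32646345-32646594): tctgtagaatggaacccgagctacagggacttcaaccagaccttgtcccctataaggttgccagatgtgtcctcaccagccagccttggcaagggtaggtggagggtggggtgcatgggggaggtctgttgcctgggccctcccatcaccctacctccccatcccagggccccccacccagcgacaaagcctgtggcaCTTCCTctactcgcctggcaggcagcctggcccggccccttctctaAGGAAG
Robo4 (chr9:37401722-37401971): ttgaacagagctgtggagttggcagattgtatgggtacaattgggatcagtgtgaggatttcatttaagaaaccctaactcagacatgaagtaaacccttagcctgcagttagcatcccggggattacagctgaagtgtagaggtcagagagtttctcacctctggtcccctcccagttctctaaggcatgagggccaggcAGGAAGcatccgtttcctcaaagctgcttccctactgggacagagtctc
All 4 windows held the ETS core, with 2 matches in Emcn, 1 in Cd34, 2 in Eng and 1 in Robo4, and so did 39.2% of all 32851 windows of this length. The core is thus a common string, and a match is not a site of binding. None of the 4 windows held the core of the interferon-stimulated response element (GAAA, any 2 bases, GAAA, in 2.98% of all windows), the STAT element GAS (TTCNNNGAA, in 7.02%), the kappa-B consensus (in 7.25%) or the GATA string AGATAA (in 9.99%), which says only that these letters are not there.

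Other genes enriched in endothelial cells were compared with the 10. Of 28 such genes 26 were measured alone, and 7 were higher, none was lower and 19 missed the threshold, with a median log2 fold change of 0.45. Over all clusters 0.652% were higher and 0.0619% lower, which are the shares to set beside this count and those of the lists below. The count of 7 was 11 without LPS replicate 3, 5 without LPS replicate 2, 4 without LPS replicate 1 and 3 without any 1 of the controls. The 3 with the smallest p were Vwf, which encodes von Willebrand factor, Cldn5, which encodes the tight junction protein claudin-5, and Tek, which encodes the angiopoietin receptor TIE2. Their log2 fold changes were 1.17, 0.98 and 1.04 (adjusted p of 0.00243, 0.00456 and 0.00465 by limma), beside 0.85, 1.04 and 1.08 for Cdh5, Pecam1 and Emcn. The other 4 were Kdr, Tie1, Podxl and Ecscr, with 0.94, 0.92, 0.93 and 0.75. Kdr was among 6 of the 26 genes that did not exceed the 95th percentile of the receptor genes used for background in any control. Without the dimmest 40% of clusters 6 genes of the list were called higher. Vwf, Cldn5 and Tek are on the list that the study drew from these arrays. The log2 fold changes of the list were not all positive, although no negative one was called. Mfsd2a, which encodes a lipid transporter of barrier endothelium and was chosen after its values were seen, had 10.01, 9.84 and 10.09 in LPS-treated mice, against 10.52, 10.90 and 10.64 in controls, a log2 fold change of -0.71 that did not pass (adjusted p = 0.0784 from limma). Of the 26 genes 16 had all LPS-treated mice above all controls, against 9.73% of all clusters. All LPS-treated mice lay below all controls in 2, against 10.3% of all clusters.

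**Figure D4:**
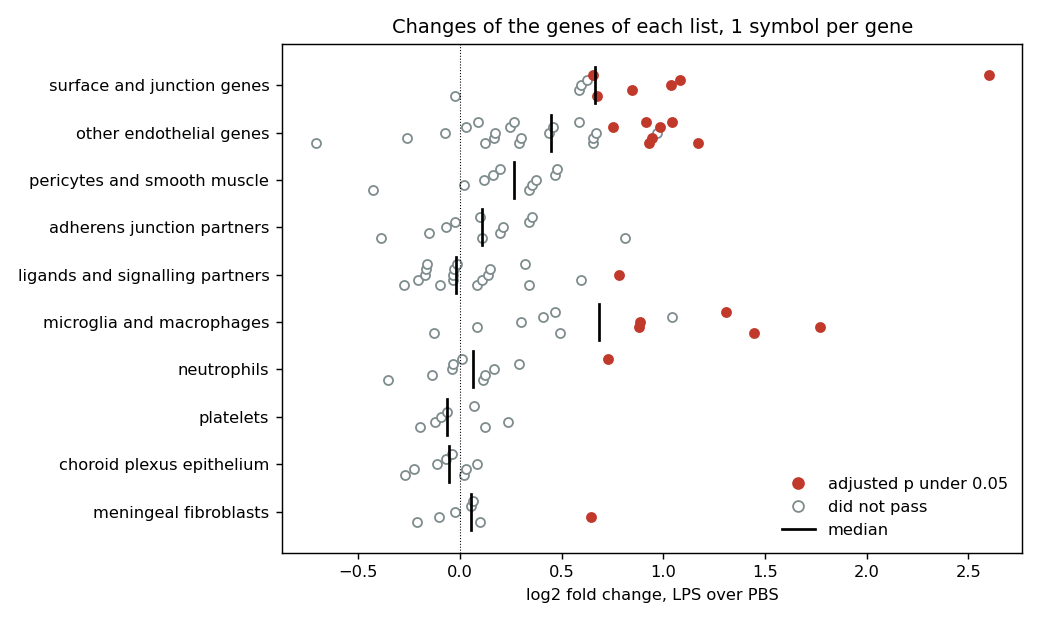
Log2 fold change of LPS over PBS (horizontal axis) for each gene of 10 lists, with filled red symbols for an adjusted p under 0.05 from limma and a black bar at the list's median. The medians are 0.67 for the surface and junction genes, 0.45 for other endothelial genes and 0.69 for microglia and macrophages, and lie between -0.06 and 0.27 in the other lists.

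The intracellular and membrane partners of the junction were not called. Of 11 such genes none was higher or lower at the adjusted threshold, and none passed the methods' t-test. At an unadjusted p under 0.05 from limma 3 were higher, against 7.69% of all clusters. The median log2 fold change was 0.11. Ptprb, which encodes the phosphatase VE-PTP that associates with VE-cadherin, had a log2 fold change of 0.81 (limma, adjusted p = 0.0826), close to that of Cdh5. Heg1 and Vcl, which encode a transmembrane receptor that binds KRIT1 and the adaptor vinculin, had 0.35 and 0.34 (adjusted p = 0.131 and 0.238 from limma). Ctnnb1, which encodes the beta-catenin that binds the tail of cadherins in most cell types of the brain, had -0.02 (adjusted p = 0.906 from limma).

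Among 18 measured ligands and signalling partners of CD93, ROBO4, endoglin and PECAM-1, 1 was higher, none lower, and 17 missed the threshold, with a median log2 fold change of -0.02. The higher gene was Igfbp7, which encodes a secreted vascular ligand of CD93. It had log2 expression values of 11.33, 11.17 and 11.27 in LPS-treated mice, against 10.58, 10.33 and 10.50 in controls, a log2 fold change of 0.78 (limma, adjusted p = 0.0211). No gene of this list was called with median centring or when any array other than LPS replicate 3 was left out, and 3 were called without that array. Tgfbr2, which encodes the type II TGF-beta receptor, and Unc5b, a partner of ROBO4, had 0.60 and 0.32 (adjusted p = 0.0816 and 0.151 from limma). Clec14a, a receptor for multimerin-2, had 0.34 (adjusted p = 0.284), Acvrl1, the ALK1 receptor to which endoglin presents ligands, 0.14 (adjusted p = 0.452), and Slit2, a guidance ligand of Roundabout receptors, -0.04 (adjusted p = 0.876 from limma). Clec14a did not exceed the 95th percentile of the olfactory and vomeronasal receptor genes in any of the 6 arrays.

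Some of the 10 genes are also carried by blood and immune cells, and markers of those cells were read in the same arrays. Of 12 microglia and macrophage genes 5 were higher, none lower, and 7 missed the threshold, with a median log2 fold change of 0.69. The 3 with the smallest p were Itgam, Adgre1 and Ptprc (1.77, 1.44 and 0.89, adjusted p up to 0.0155 from limma). Itgam and Adgre1, the latter as Emr1, are on the list that the study drew from these arrays. The count of 5 became 3 with median centring or without LPS replicate 2, and 2 without LPS replicate 1 or any 1 of the controls. Their list had a mean log2 level of 8.20 to 8.47 in LPS-treated mice and 7.57 to 7.67 in controls, and none of the 12 had a control mean at or below the receptor genes' median. However, 2 of the 12, Aif1 and Ptprc, did not exceed the 95th percentile of the receptor genes in any control. All LPS-treated mice lay above all controls in 10 of the 12, against 9.73% of all clusters. Aif1 and Cd14 had overlapping groups, with log2 fold changes of 0.09 and -0.13. The mean of the list was thus higher in LPS-treated mice, as were Cd93 and Pecam1, both known in myeloid cells. Its part in their values was not tested. Of 10 neutrophil genes 1, Csf3r, was higher (log2 fold change 0.73, adjusted p = 0.0188 from limma), a call lost without any array other than LPS replicate 3, and all 10 were at or below the 95th percentile of the receptor genes in every control. Of 7 platelet genes none was higher or lower, with a mean log2 level of 6.28 to 6.45 in LPS-treated mice and 6.32 to 6.39 in controls, and 5 were at or below that percentile in every control. None of 3 erythroid genes passed either.

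Cells around the vessels were read in the same way. None of 10 pericyte and smooth muscle genes was higher or lower at the adjusted threshold or by the methods' t-test, and their median log2 fold change was 0.27. At an unadjusted p under 0.05 from limma 5 were higher, against 7.69% of all clusters. Their mean log2 level was 7.51 to 7.68 in LPS-treated mice, against 7.34 to 7.45 in controls. Pdgfrb, Abcc9 and Anpep, which mark pericytes, had log2 fold changes of 0.38, 0.48 and 0.34 (limma, adjusted p from 0.138 to 0.197). Of 7 genes of meningeal fibroblasts 1 was higher, Dcn, which encodes decorin (log2 fold change 0.64, adjusted p = 0.0466 from limma), and none was lower. That call was lost with median centring and without any array other than LPS replicate 3.

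The genes outside the list whose values over the 6 arrays followed the mean of the 10 most closely were Slc7a11, Igfbp7, Herc6, Add3 and Nup188, with Pearson's r of 0.994 to 0.999. These r are descriptions over 6 arrays that fall into 2 groups, and a gene that differs between the groups has a high r for that alone. The log2 fold changes of Slc7a11, Igfbp7 and Herc6 were 0.76, 0.78 and 0.85, while Add3 and Nup188, with 0.28 and 0.09, did not pass the test (limma, adjusted p = 0.175 and 0.585). Of the 10 genes themselves 9 had an r of 0.944 to 0.993 with their own mean, of which each is a part, and Plvap had -0.02.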

How the data were processed

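Whole brain RNA of 6 mice was measured on Mouse Gene 1.0 ST arrays, 1 per mouse. The authors deposited log2 expression values made by RMA. They were used without further normalization or filtering. Clusters took the gene of GEO's platform annotation where it gives 1 gene (21789 of 35556 clusters), and a gene with several was read from its brightest. Of the list genes, 10 are not named alone by any cluster and were not analysed here. LPS was compared with PBS with limma 3.58.1 (lmFit, then eBayes; R 4.3.3), and the procedure was tested on simulated data. The methods' t-test is an unpaired t test with equal variances on the same values; the study's methods name unpaired t tests and one-way analysis of variance, which give the same p for 2 groups. Arrays have no count depth, and their number limits the precision.

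The 10 genes and all lists were chosen with earlier results of these data known. The genes named are these 10, Tbp, 6 partners set beforehand, up to 3 genes per list with the smallest p, and the 5 most alike. Beyond this rule, Kdr, Tie1, Podxl and Ecscr are named because they complete the genes called in their list, and Mfsd2a was chosen after its values were seen. Aif1 and Cd14 are named as the genes of their list whose groups overlapped. The alternatives were the methods' t-test, an eBayes trend, array weights, quantile normalization, median centring, leaving out the dimmest 40% of clusters, an offset of 32 on the linear scale, the replicate number as a block, each array left out, and LPS replicates 1 and 2 both left out. Within-array differences were also computed with quantile normalization, with the mean of the other genes and, chosen after the data were seen, without centring each gene. Protein sequences were not used here.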

Additional observations from a re-analysis of the deposited data

How the results depend on the processing

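The 6 calls among the 10 genes held with an eBayes trend, without the dimmest 40% of clusters and with an offset of 32, and 9 passed with array weights. The weights were 8.69, 0.49 and 0.25 for LPS replicates 1, 2 and 3, so that the LPS side of that fit rested mostly on replicate 1. Median centring left Cdh5, Emcn and Cd93 called, and the replicate block left Pecam1, Emcn and Cd93. The genes called higher numbered 0 by the methods' t-test, 3 with median centring, 3 with the replicate number as a block, 0 with LPS replicates 1 and 2 left out and 3 to 9 with each array left out. Cluster counts for higher and lower were 232 and 22 in all, 4 and 1 by the methods' t-test, 4751 and 3572 with array weights, 141 and 10 with median centring, 76 and 4 with the replicate block, 71 and 12 with LPS replicates 1 and 2 left out, 74 to 2640 and 0 to 1152 with each array left out, and 13 lower after quantile normalization. Other endothelial genes called higher numbered 0, 15, 2 and 2 by the methods' t-test, array weights, the replicate block and LPS replicates 1 and 2 left out, and 3 to 11 with each array left out; 1 was lower with array weights and 0 to 1 with each array left out. With the replicate block 2 microglia and macrophage genes and no ligand, neutrophil or meningeal fibroblast gene were called higher. Centring on the array median shifted the median of all clusters to -0.09. The labels do not say whether the replicate numbers pair the mice. Deviations of same-numbered mice from their group means correlated at 0.09, -0.05 and 0.10 over all clusters, and those of differently numbered mice at -0.17 to 0.15. With 3 mice per group these values cannot settle whether same-numbered mice were handled together. Plvap turned its sign, without being called, with array weights (0.00467), with LPS replicates 1 and 2 left out (0.00741) and with arrays left out (-0.0824 to 0.0361). Among within-array differences, none past the adjusted threshold, Cd34 turned to 0.0253 after quantile normalization, Cdh5 to -0.0223 against the mean of the others, and Pecam1, Cdh5 and Emcn to -0.23, -0.28 and -0.0413 without centring. The cause was not tested. Each of the 10 genes has 1 cluster, so that the mean of a gene's clusters is no alternative for them.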
